A study of Mus musculus with 4 samples.

Results

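The genes described here encode liver enzymes that oxidise alcohols and aldehydes: 3 alcohol dehydrogenases (Adh1, Adh4 and Adh5), 6 aldehyde dehydrogenases (Aldh1a1, Aldh1l1, Aldh2, Aldh3a2, Aldh6a1 and Aldh8a1) and the aldehyde oxidase Aox1. They were taken by their gene symbols from the 33924 genes in the count data, and all 10 were present and had at least 35 counts in every library. The rule that names them uses no measured value, although they were chosen with earlier results of these data known. The study asked how gene expression in mouse liver varies with age, in order to find genes for normalisation. It compared liver RNA of C57BL6 mice at ages of 3 months, 9 months, 15 months and 21 months, with 1 library per age. According to the methods of the study the mice were male C57BL/6Rj, fed freely and kept in light and dark phases of equal length, no treatment is named, and each library was a pool of RNA from 24 mice, 4 at each of 6 times of the day. Differences between times of the day and between single mice are therefore averaged within a pool and cannot be seen. RNA without a cap was digested, so that the 35-base reads come from the 5′ ends of capped transcripts.

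Alcohol dehydrogenases use NAD to turn an alcohol into an aldehyde, and aldehyde dehydrogenases use NAD or NADP to turn the aldehyde into an acid. In the hepatocyte this pair of steps clears ethanol, makes retinoic acid from retinol, and removes reactive aldehydes that arise from lipids, amino acids and folates. Aldehyde oxidase reaches the acid by another route, with a molybdenum cofactor and molecular oxygen.

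The gene counts summed to between 525772 (15 months) and 958586 (9 months) per library, and a floor of 3 counts corresponds to 3.13 to 5.71 cpm, the count scaled to a library total of 1000000. Reads with more than 1 alignment made up 72.2 to 76.7% of the records and were not counted on genes. With 1 library per age there are no replicates, and all intervals given are 95% intervals that cover counting error only (Wilson for levels, exact Clopper-Pearson for ratios). Overlap of these intervals does not test whether levels or ratios differ. The tissue label was matched by all 8 hepatocyte markers, Alb first, which together took 79678 to 88929 cpm. Markers of other cells were present at lower sums: 854 to 1145 cpm for Kupffer cells and macrophages, 792 to 873 cpm for sinusoidal endothelial cells, 359 to 631 cpm for stellate cells and fibroblasts, 16.7 to 41.8 cpm for bile duct cells and 14.6 to 25.8 cpm for lymphocytes. In pooled tissue, fewer cells of a type and less RNA per cell cannot be told apart.

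The 3 alcohol dehydrogenases form 1 cluster on chromosome 3, all on the plus strand (assembly NCBIM37, also called mm9). Adh1 spans 137923955 to 137953662, Adh4 138078430 to 138093856 and Adh5 138106057 to 138118463, with 124.8 kb between the first pair and 12.2 kb between the second. Aldh1a1 is on chromosome 19 (20676451 to 20717952, plus strand), and its close relative Aldh1a7 is on the minus strand 49.5 kb away, from 20767443 to 20802052. The plus strand also carries Aldh1l1 on chromosome 6 (90436421 to 90550197), Aldh8a1 on chromosome 10 (21097097 to 21116391) and Aox1 on chromosome 1 (58086775 to 58163257), the last 6.7 kb from Aox3. The minus strand carries Aldh2 on chromosome 5 (122016036 to 122043833), Aldh3a2 on chromosome 11 (61036919 to 61080966) and Aldh6a1 on chromosome 12 (85771673 to 85791900). All 10 are annotated as protein-coding. Exons of Adh1, Aldh1l1 and Aldh6a1 overlap exons of Gm16559, Gm15756 and 2900006K08Rik on the other strand, which had at most 7 counts in any library.

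One pair of sequences matters for the values below. Aldh1a1 and Aldh1a7 transcripts were identical at 90.3% of 2044 aligned bases, and the reads were 35 bases long. The first 60 coding bases of each gene in NCBIM37 (chr19:20676502-20676561, plus strand, and chr19:20801943-20802002, minus strand) are shown with the 3 differing bases in capitals, because reads from this stretch have to be told apart by them.
Aldh1a1: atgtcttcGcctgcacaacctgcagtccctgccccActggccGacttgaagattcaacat
Aldh1a7: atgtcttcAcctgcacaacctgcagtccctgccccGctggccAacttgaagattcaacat
Of the 66 windows of 35 bases within the first 100 bases of Aldh1a1, 41 (62.1%) also matched Aldh1a7 with at most 1 mismatch, and over the whole transcript 21.6% did. The 41 windows began between bases 10 and 52 of the transcript. The untranslated stretch before the coding bases of Aldh1a1 has 51 bases, so these windows began at or before the first base shown. The window that begins at the annotated start itself matched 1 place in the genome, in Aldh1a1. For Adh4, 7.21% of the windows matched the pseudogene Adh6-ps1, and for the other 8 members no window within the first 100 bases matched a second place. The first exon of Adh4 has 55 to 63 bases, and 46.8% of its windows were found in the unspliced genome. The share was 78% for Aldh6a1, whose shortest first exon has 62 bases, 96.3% for Aldh1l1 and 100% for the remaining members. How reads across a splice junction were mapped is not given in the sources used here. Where the reads of these libraries began cannot be read from gene counts, so the counts of Aldh1a1 and Aldh1a7 are uncertain to that extent.

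The regions before the transcription starts bear on cap-selected reads, since those reads begin where transcription begins. RefSeq promoters (build GRCm38.p6, 12 starts) matched 9 members, all but Aldh2. For the 3 genes that varied most over age in the values below and for the steadier Adh5, the 100 bases before a start are shown, with the letters CCAAT and GGGCGG or their reverse complement in capitals. Each matched 1 place in NCBIM37: chr19:20676358-20676457 (plus strand, Aldh1a1), chr6:90500687-90500786 (plus strand, Aldh1l1), chr12:85791975-85792074 (minus strand, Aldh6a1) and chr3:138105957-138106056 (plus strand, Adh5).
Aldh1a1: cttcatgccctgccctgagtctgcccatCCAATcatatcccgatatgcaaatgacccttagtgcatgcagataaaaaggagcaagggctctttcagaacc
Aldh1l1: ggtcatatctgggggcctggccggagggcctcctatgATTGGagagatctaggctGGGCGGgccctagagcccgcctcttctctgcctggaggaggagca
Aldh6a1: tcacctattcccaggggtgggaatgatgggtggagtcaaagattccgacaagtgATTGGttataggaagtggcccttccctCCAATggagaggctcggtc
Adh5: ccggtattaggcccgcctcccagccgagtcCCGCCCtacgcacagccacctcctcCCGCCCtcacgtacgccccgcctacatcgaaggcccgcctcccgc
In the 250 bases before a start, read on both strands, CCAAT was found in 7 of the 12 promoters of members and in 33.8% of all 32851 promoters. GGGCGG was found in 4 of 12 (32.7% of all), TATAAA in 1 of 12 (12.4% of all) and the E-box CACGTG in 1 of 12, that of Aldh3a2 (6.02% of all). The D-box TTATGTAA and TTGCGCAA were in none of the 12, and in 0.819 and 0.164% of all promoters. Matches of different motifs overlapped in 0 of the 12 promoters. For the starts shown, the GC content of the 250 bases was 46.4% for Aldh1a1, 59.6% for Aldh1l1, 52.4% for Aldh6a1 and 63.6% for Adh5. That of Adh5 was higher than in 80% of all promoters. Aldh1a1, Aldh6a1 and Adh5 each have another RefSeq start, not shown, where it was 42.8, 41.2 and 45.2%. These matches describe the letters and do not show binding.

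Adh1, the classical liver alcohol dehydrogenase that oxidises ethanol and also retinol, had the highest level of the 10 genes in every library. It had 3998 cpm (3874 to 4127) at 3 months, 3384 (3270 to 3502) at 9 months, 3420 (3266 to 3581) at 15 months and 3610 (3476 to 3750) at 21 months. The 3 month level lay above the other 3 intervals. Adh4, a class II enzyme with a lower affinity for ethanol, had 82.6 cpm (66.3 to 103) at 3 months, 100 (82.0 to 122) at 9 months, 129 (102 to 164) at 15 months and 122 (99.5 to 150) at 21 months, with the lowest level in the youngest pool and intervals that overlap between neighbouring ages. Adh5, which oxidises the glutathione adduct of formaldehyde in nearly every cell, had 135 cpm (114 to 160), 115 (95.2 to 138), 108 (83.7 to 140) and 129 (106 to 158) at 3, 9, 15 and 21 months, and all of these intervals overlap.

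Aldh1a1, a cytosolic enzyme that makes retinoic acid from retinal, stood out by a low level in the 9 month pool. It had 1702 cpm (1621 to 1787) at 3 months, 608 (561 to 660) at 9 months, 1748 (1639 to 1865) at 15 months and 1204 (1127 to 1286) at 21 months, from 1627, 583, 919 and 886 counts. The levels at 3 and 15 months overlap, that at 21 months lay between, and that at 9 months lay below all others. Aldh2, the mitochondrial enzyme that clears acetaldehyde, had 1735 cpm (1654 to 1821), 1511 (1435 to 1590), 1474 (1374 to 1581) and 1727 (1635 to 1824) in the order of age. Its 3 and 21 month pools were alike within counting error, as were its 9 and 15 month pools, and both of the latter were lower. Aldh1l1, which oxidises formyltetrahydrofolate and so takes part in folate metabolism, had 1451 cpm (1377 to 1529) at 3 months, 1371 (1299 to 1447) at 9 months, 953 (873 to 1040) at 15 months and 1364 (1282 to 1451) at 21 months. Here the 15 month pool was the one that lay apart, below the other 3.

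Aldh8a1, an enzyme of the kynurenine branch of tryptophan breakdown, had 450 cpm (409 to 494), 479 (437 to 525), 489 (433 to 552) and 538 (488 to 594) from the youngest to the oldest pool, with overlapping intervals. Aldh6a1, the mitochondrial dehydrogenase for semialdehydes from valine and pyrimidines, had 96.2 cpm (78.5 to 118) at 3 months, 155 (132 to 182) at 9 months, 162 (131 to 200) at 15 months and 135 (111 to 164) at 21 months. Its youngest pool lay below the 9 and 15 month pools. Aldh3a2, the membrane-bound enzyme for long-chain fatty aldehydes, had 95.2 cpm (77.5 to 117), 90.8 (73.6 to 112), 105 (80.4 to 136) and 74.7 (57.4 to 97.3). Aox1 had 69.0 cpm (54.3 to 87.8), 63.6 (49.5 to 81.7), 66.6 (47.9 to 92.6) and 74.7 (57.4 to 97.3), from 35 to 66 counts. For neither of these low genes did an age stand apart from the others at this depth, since all of their intervals overlap.

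**Figure D1:**
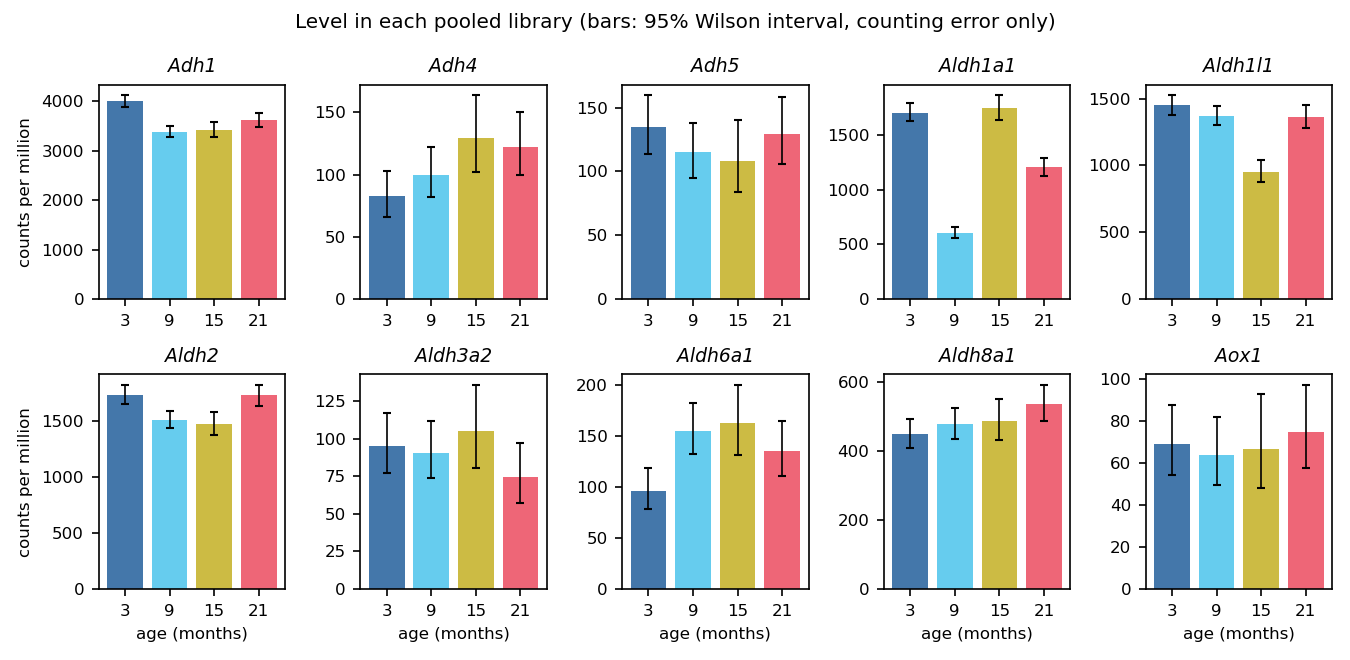
Level of each of the 10 genes in the pooled liver libraries of 3, 9, 15 and 21 months, in cpm (bars from 0, 1 library per age), with 95% Wilson intervals for counting error. Aldh1a1 is at 608 cpm at 9 months against 1204 to 1748 cpm at the other ages, and Adh1 lies between 3384 and 3998 cpm.

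By mean cpm over the 4 libraries the order was Adh1 (3603), Aldh2 (1612), Aldh1a1 (1315), Aldh1l1 (1285), Aldh8a1 (489), Aldh6a1 (137), Adh5 (122), Adh4 (109), Aldh3a2 (91.3) and Aox1 (68.5). The ranges over the 4 ages of Adh1 and of Aldh8a1 overlapped with those of no other member. In contrast, the range of Aldh1a1 overlapped with those of Aldh2 and Aldh1l1, so that its place beside them cannot be given, while Aldh2 was above Aldh1l1 in every library. Each of the 5 lowest genes overlapped or met its neighbour in this order. Reads from 5′ ends need not grow in number with transcript length, so the levels are given on both scales. Per kb of the longest coding transcript, Adh1 was again first with a mean of 2415 cpm per kb, followed by Aldh1a1 with 641, Aldh2 with 417, in the reverse order of their mean cpm, and Aldh1l1 with 308. At the lower end were Aldh6a1 with 39.9, Aldh3a2 with 29.5 and Aox1 with 15.5 cpm per kb.

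Together the 10 genes held 0.981% (0.962 to 1) of all gene counts at 3 months, 0.788% (0.770 to 0.806) at 9 months, 0.865% (0.841 to 0.891) at 15 months and 0.898% (0.877 to 0.920) at 21 months. Adh1 alone made up 39.5 to 43.0% of that sum. The share of Aldh1a1 was 17.3% (16.6 to 18.1) at 3 months, 7.72% (7.14 to 8.34) at 9 months, 20.2% (19.1 to 21.4) at 15 months and 13.4% (12.6 to 14.3) at 21 months. Without Aldh1a1, a set formed after its values were seen, the other 9 held 0.811, 0.727, 0.691 and 0.777%, and the lowest library was then that of 15 months instead of 9 months.

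To compare ages, the study divided each count by the geometric mean over all genes, which gives the centered log-ratio (clr) after taking the natural logarithm. The same formula was used here for ratios between ages, with the geometric mean over the 8704 genes of the count data that had a count in every library. The gene set over which the study took its mean was not used. Ratios on this scale differ from ratios of cpm by 1 common factor per pair of libraries. The median ratio over 4295 genes with at least 20 counts in at least 1 library was 0.973 at 9, 0.892 at 15 and 0.955 at 21 months over 3 months. The medians of the 10 members were close by, at 0.957, 0.910 and 0.95.

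Between 9 and 3 months, 2 of the 10 members differed by more than 1.5-fold, where 37.5% of the 4295 genes did. Aldh1a1 was lower with a ratio of 0.366 (0.333 to 0.403) and Aldh6a1 was higher with 1.66 (1.27 to 2.17). The other 8 had ratios from 0.868 for Adh1 (0.828 to 0.910) to 1.24 for Adh4 (0.913 to 1.70). As low counts alone can give large ratios, the count was repeated for genes with at least 100 counts in every library. Of the 5 members of this kind (Adh1, Aldh1a1, Aldh1l1, Aldh2 and Aldh8a1) 1 passed 1.5-fold, Aldh1a1, where 13.9% of 497 such genes did. Under the 5 other scalings tried the ratio of Aldh1a1 was 0.357 to 0.376.

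In the 9 month pool, where Aldh1a1 was low, the summed pericentral hepatocyte markers were at 20040 cpm and the periportal markers at 11275 cpm, against 17180 and 8667 cpm at 3 months. Most of the pericentral sum was Cyp2e1, with 15651 cpm at 9 months and 12670 cpm at 3 months. Of the other pericentral markers, Oat and Slc1a2 were higher at 9 months, while Glul, Cyp1a2, Lect2, Rhbg and Axin2 were lower. Among the periportal markers, Gls2 (139 to 122 cpm) and Cdh1 (57.5 to 38.6 cpm) were lower. Kupffer cell and macrophage markers summed to 1000 against 854 cpm, and the stellate and fibroblast markers to 586 against 359 cpm. The largest rises in these sums were those of Cd5l (316 to 426 cpm) and Dcn (201 to 393 cpm). Emr1, C1qc, Col1a1, Col1a2, Des and Acta2 were lower at 9 months. The sums of sinusoidal endothelial markers (855 against 873 cpm) and bile duct markers (16.7 against 30.3 cpm) were lower, and that of lymphocyte markers was higher (17.7 against 14.6 cpm). No bile duct or lymphocyte marker reached 20 counts in any library, so these 2 sums rest on few reads. The part of these differences in the result was not tested. When the counts of Aldh1a1 and Aldh1a7 were added, a choice made after seeing the data, the ratio of 9 over 3 months was 0.526 (0.487 to 0.567), still past 1.5-fold. Adding the counts cannot restore reads that were left out because they matched both genes.

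Between 15 and 3 months, 2 of the 10 members were past 1.5-fold against a background of 40.9%. Aldh1l1 was lower with a ratio of 0.601 (0.541 to 0.666) and Aldh6a1 higher with 1.54 (1.13 to 2.09). Aldh1a1 had a ratio of 0.939 (0.865 to 1.02), so that the low value of the 9 month pool was not seen in the next older one. Adh1 (0.782, 0.739 to 0.827) and Aldh2 (0.777, 0.712 to 0.846) had almost the same ratio, both below the median of all genes, while Adh4 was at 1.43 (1.02 to 2) and Adh5 at 0.735 (0.528 to 1.01). Among members with at least 100 counts in every library 1 of 5 passed, Aldh1l1, where 18.5% of such genes did. Scaled by the geometric mean of Atp5h, Gsk3b and Sirt2, genes the study chose for normalisation, Aldh1l1 was at 0.682 and no longer past the limit, and Adh4 passed it with 1.63. This library had the fewest counts.

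Between 21 and 3 months, no member was past 1.5-fold, where 38.2% of the 4295 genes were. The same held for the 5 members with at least 100 counts in every library, against 10.9%. The lowest ratio was that of Aldh1a1 (0.689, 0.634 to 0.748) and the highest were those of Adh4 (1.44, 1.05 to 1.97) and Aldh6a1 (1.36, 1.01 to 1.83). Aldh2 (0.969, 0.900 to 1.04), Adh5 (0.931, 0.707 to 1.22) and Aox1 (1.05, 0.723 to 1.53) had intervals that include 1. Adh1 (0.879) and Aldh1l1 (0.915) lay below 1 in this scaling but above it, at 1.01 and 1.05, with Atp5h, Gsk3b and Sirt2, a scaling that moved the median of all genes from 0.955 to 1.10. With this scaling Adh4 (1.66) and Aldh6a1 (1.57) passed the limit, as did 39% of all genes.

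**Figure D2:**
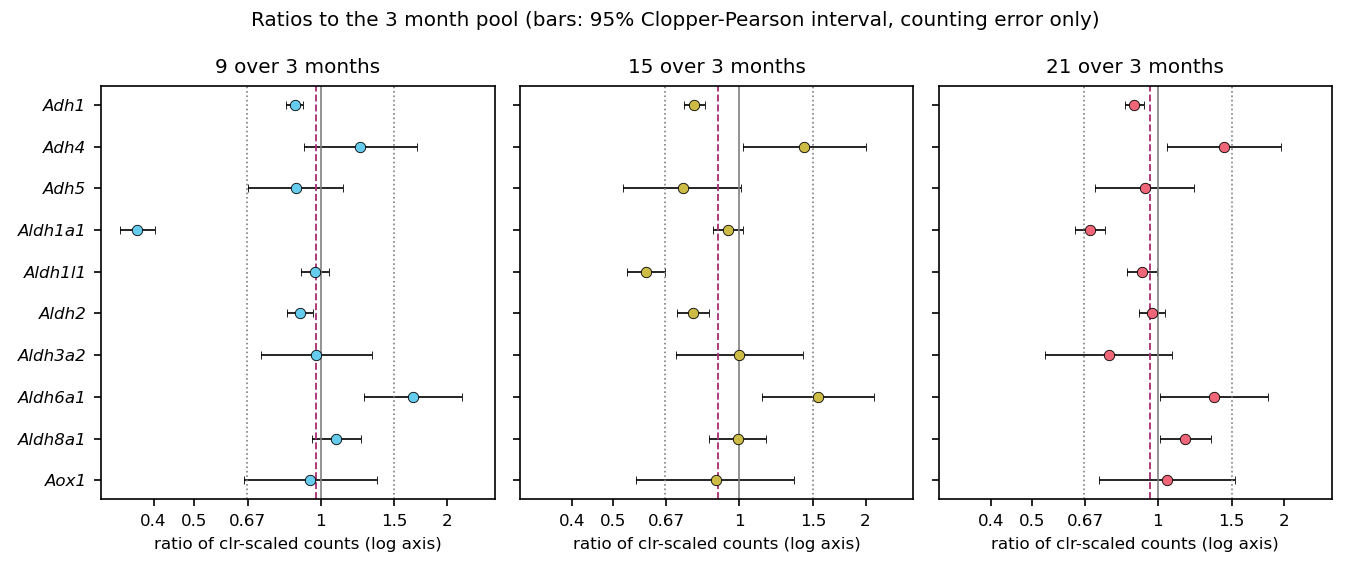
Ratio of each gene at 9, 15 and 21 months over 3 months after clr scaling (log axis), with exact 95% intervals for counting error. The grey line marks 1, dotted lines 1.5-fold in either direction and the dashed line the median of 4295 genes; Aldh1a1 at 9 months (0.366) and Aldh1l1 at 15 months (0.601) are the points to the left of the lower dotted line, and Aldh6a1 (1.66 and 1.54) those to the right of the upper one.

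Over all 4 ages, the highest clr-scaled value of a gene was more than 1.5-fold above its lowest for 3 of the 10 members and for 75.7% of all 4295 genes. These were Aldh1a1 with 2.73 (2.48 to 3.00), Aldh1l1 with 1.67 (1.5 to 1.85) and Aldh6a1 with 1.66 (1.27 to 2.17). The other 7 ranged from 1.17 for Aldh8a1 to 1.44 for Adh4. With at least 100 counts in every library it was 2 of 5 members, Aldh1a1 and Aldh1l1, against 36.8% of genes. The median over the 10 members was 1.34 and that over all genes 1.90; the medians of the deeper sets were closer, at 1.29 and 1.42. Highest over lowest was counted between 3 and 9 months for Aldh1a1, between 3 and 15 months for Aldh1l1 and between 9 and 3 months for Aldh6a1, so that it rests on single libraries. Leaving out the 3, 9 or 15 month library left 2 members past the limit, and 61.5, 63.3 and 60.5% of all genes.

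The variance of clr over age, which the study used to rank genes, was below the median of all 8704 genes (0.160) for 9 of the 10 members, and the mean clr was above the median (-0.21) for all 10. The lowest variances were those of Aldh8a1 (0.00576) and Aox1 (0.00585). For Aox1 the counting error alone would give 0.0196, whereas it would give 0.00273 for Aldh8a1. Adh1 (0.0101) and Aldh2 (0.0127) followed, with counting errors of 0.000376 and 0.000843. Aldh1a1 had the highest variance, 0.211, against a counting error of 0.00114; 57.7% of all genes had a lower one, as did 98.2% of the genes with at least 100 counts in every library. Aldh1l1 with 0.0565 was higher than 78.9% of these deeper genes, Aldh8a1 than 11.7% and Adh1 than 22.9%. The median variance of the 10 members was 0.0174, and it was 0.00599 without the 15 month library and 0.0253 without the 9 month library. For the 5 members with at least 100 counts in every library the median was 0.0127, compared with 0.0243 for all such genes. Without the 9 month library, all 10 members were below the median variance.

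**Figure D3:**
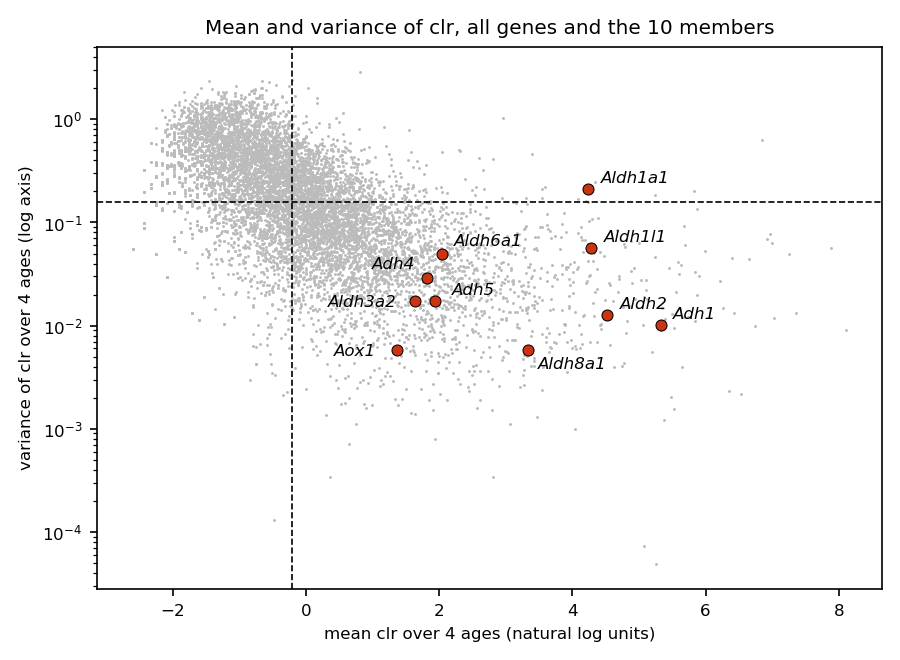
Mean and variance of clr over the 4 ages for 8704 genes (grey) and the 10 members (red), with the medians of all genes as dashed lines (variance 0.160, mean -0.21). Every member lies to the right of the median mean, and Aldh1a1 (0.211) is the one above the median variance.

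Ratios between genes of the same library do not depend on scaling. The ratio of the counts of Adh1 to those of Aldh2, the pair that oxidises ethanol to acetate, was 2.30 (2.17 to 2.44), 2.24 (2.11 to 2.39), 2.32 (2.13 to 2.53) and 2.09 (1.95 to 2.24) at 3, 9, 15 and 21 months, with overlapping intervals. By contrast, the ratio of Aldh1a1 to Aldh2 was 0.981 (0.915 to 1.05), 0.403 (0.365 to 0.444), 1.19 (1.08 to 1.31) and 0.697 (0.639 to 0.760), and no neighbouring intervals overlap. Aldh1a1 over its relative Aldh1a7 was 4.66 (4.15 to 5.25), 1.35 (1.19 to 1.53), 5.54 (4.69 to 6.57) and 2.13 (1.90 to 2.40). Both of these ratios have the counts of Aldh1a1 in common and are not independent. Aldh1a7 itself had 349, 433, 166 and 415 counts, or 365, 452, 316 and 564 cpm. Aldh8a1 over Aldh2 was 0.259 (0.233 to 0.288) at 3 months. It was 0.317 (0.285 to 0.352), 0.332 (0.287 to 0.382) and 0.312 (0.278 to 0.349) later, and each of these intervals overlaps that of 3 months. Adh4 over Adh1 was 0.0207 (0.0163 to 0.0258) at 3 months and 0.0296 to 0.0378 later. Its interval at 9 months (0.0239 to 0.0363) overlaps that of 3 months, and those at 15 (0.0292 to 0.0482) and 21 months (0.0271 to 0.0418) do not.

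**Figure D4:**
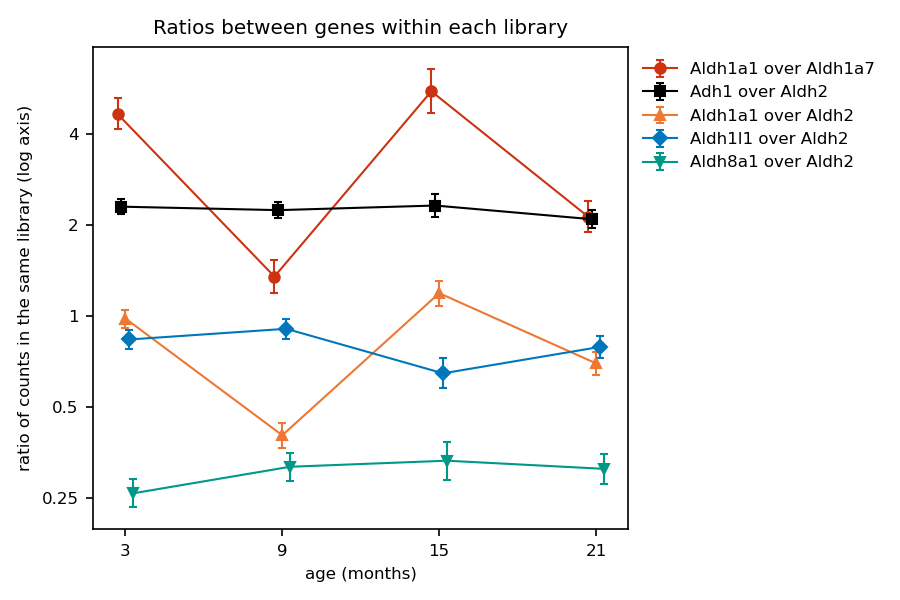
Ratio of the counts of 2 genes within the same library by age (log axis), with exact 95% intervals for counting error; points are shifted sideways so as not to cover each other. Adh1 over Aldh2 stays between 2.09 and 2.32, while Aldh1a1 over Aldh1a7 ranges from 1.35 at 9 months to 5.54 at 15 months.

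A steady change with age was tested by fitting a slope on age to the 4 libraries for 5569 genes (edgeR quasi-likelihood test, Benjamini-Hochberg adjustment over all genes). None of the 10 members passed the test, and 6 genes (0.108%) did in all; at an unadjusted p under 0.05 there were 290 genes (5.21%) and again no member. The fitted log2 changes over 18 months were largest for Adh4 (0.58 ± 0.43, SE, edgeR adjusted p = 0.998) and Aldh6a1 (0.39 ± 0.44, adjusted p = 0.998). They were lowest for Aldh3a2 (-0.28 ± 0.45) and Aldh1l1 (-0.25 ± 0.33), again with an adjusted p = 0.998, as for each of the 10 genes. Of these changes 6 were negative, and their median was -0.09 on the log2 scale, against -0.00114 over all genes. The fit has 2 residual degrees of freedom, and a p that misses the threshold does not show that a gene is stable.

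The other genes of these families and of the pathways that the 10 enzymes belong to gave no call in the age trend either, and ratios past 1.5-fold are given for the list members with enough counts. For comparison, of all 4295 genes 17.4% were higher and 20.1% lower past 1.5-fold at 9 over 3 months, 14.1% and 26.8% at 15 over 3 months, and 15.5% and 22.7% at 21 over 3 months. The lists are small, and none of these counts was tested. Of 5 other alcohol dehydrogenase genes, 2 had at least 20 counts in a library, and both were past 1.5-fold upwards at 15 months (14.1% of all genes), Adhfe1 with 1.81 (0.974 to 3.39) and Adh7 with 1.51 (0.575 to 3.92), intervals that include 1. Adh7 was also past the limit at 9 months with 1.58 (0.698 to 3.73) and at 21 months with 2.53 (1.18 to 5.78). Its ratios rest on 10 to 22 counts per library. Adhfe1 was within the limit at 9 and 21 months, with 1.26 and 1.32. Adhfe1 (23.0 to 45.6 cpm), Adh7 (11.5 to 29.9 cpm) and the pseudogene Adh6-ps1 (8.37 to 18.8 cpm) had the highest means, and Adh6a had no count in any library, where the floor of 3 counts is 3.13 to 5.71 cpm. Of 14 other aldehyde dehydrogenase genes, 7 had at least 20 counts and 4 had none at all. Aldh1a7 was followed by Aldh4a1 (274 to 372 cpm), which acts in proline breakdown, and Aldh9a1 (211 to 322 cpm). At 21 over 3 months 1 of these 7 genes was past 1.5-fold upwards and 2 downwards (38.2% of all genes in either direction), with a median ratio of 0.725. The higher one was Aldh1a7 with 1.5 (1.3 to 1.74), at the limit and with counts uncertain for the windows shared with Aldh1a1. The lower ones were Aldh5a1 with 0.632 (0.288 to 1.31) and Aldh16a1 with 0.438 (0.18 to 0.964). They had 12 and 9 counts at 21 months. Of the other molybdenum hydroxylases, Aox3, another aldehyde oxidase, had 457 to 634 cpm. The ratio of the counts of Aox1 to those of Aox3 was 0.109 (0.0832 to 0.141) at 3 months and 0.164 (0.121 to 0.218) at 21 months, with overlapping intervals. Xdh, which makes uric acid, had 83.7 to 133 cpm. Neither Aox3 nor Xdh was past 1.5-fold in the 3 ratios to 3 months.

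In ethanol oxidation and acetate use, Cyp2e1, the microsomal ethanol-oxidising cytochrome, had 12670 cpm at 3 months and 15426 to 15718 cpm later, with a 9 over 3 month ratio of 1.27 (1.24 to 1.30). Catalase (Cat) had ratios of 0.811 (0.761 to 0.864) at 9 months, 0.654 (0.604 to 0.707) at 15 months and 0.810 (0.757 to 0.867) at 21 months. It was the 1 of 3 measured genes past 1.5-fold, at 15 months, while Acss2, which activates acetate, had 93.2 to 156 cpm. Among 10 measured retinoid genes, 2 were higher and 2 lower past 1.5-fold at 9 months (37.5% of all genes in either direction), with a median ratio of 1.09. The 3 highest were Rdh7, a retinol dehydrogenase (1445 to 1915 cpm), the plasma retinol carrier Rbp4 (1279 to 1778 cpm) and the retinal reductase Dhrs3 (371 to 455 cpm). At 9 months, when Aldh1a1 was low, their ratios to 3 months were 1.22 (1.14 to 1.31), 1.14 (1.06 to 1.24) and 1.11 (0.964 to 1.27).

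Partners of Aldh6a1 in valine and pyrimidine breakdown had a median 9 over 3 month ratio of 1.15 over 14 measured genes, with 4 higher and 1 lower past 1.5-fold, near the share of 37.5% over all genes. The 3 most abundant, Dpys, Bckdha and Upb1, had ratios of 1.03 (0.837 to 1.26), 1.01 (0.812 to 1.25) and 1.25 (0.994 to 1.58). Their 15 over 3 month ratios were 0.796, 0.780 and 0.909, where Aldh6a1 had 1.54. Of the 14 genes 2 were higher and 3 lower past 1.5-fold at 15 months, where 14.1% and 26.8% of all genes were. The higher ones were Dpyd with 1.52 (1.12 to 2.06) and Mut with 2.85 (1.03 to 8.54). Mut had 7 counts at 3 months and 12 at 15 months. The lower ones were Hibadh with 0.504 (0.323 to 0.765), Abat with 0.56 (0.365 to 0.838) and Mcee with 0.453 (0.238 to 0.814). All of these were named after their values were seen. Of the 6 measured partners of Aldh1l1 in folate metabolism, 3 were lower past 1.5-fold at 15 months and none was higher, with a median of 0.641, where 26.8% of all genes were lower and the median was 0.892. Shmt2, which makes folate-bound one-carbon units from serine, was at 0.594 (0.458 to 0.766), and Shmt1 and Ftcd were at 0.732 (0.530 to 1) and 0.687 (0.528 to 0.888). At 21 months Shmt2 had a ratio of 0.963 (0.788 to 1.17), Shmt1 of 0.953 (0.729 to 1.24) and Ftcd of 0.778 (0.619 to 0.974). Mthfd1, named after its values were seen, was low at both ages, with 0.540 (0.384 to 0.747) at 15 months and 0.550 (0.407 to 0.737) at 21 months, where Aldh1l1 was at 0.601 and 0.915. The remaining gene lower past 1.5-fold at 15 months was Gart with 0.222 (0.0246 to 0.953). It rests on 15 counts at 3 months and 2 at 15 months.

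For Aldh8a1, 11 partners in the kynurenine pathway were measured. At 15 months 4 of them were lower and none higher past 1.5-fold, with a median ratio of 0.713, where 26.8% of all genes were lower and the median was 0.892. The lower ones were Ido2 (0.558), Ccbl2 (0.568), Afmid (0.636) and Ccbl1 (0.656). Aldh8a1 itself was at 0.994 (0.848 to 1.16). Tdo2, the first enzyme of the pathway, had a ratio of 1.47 (1.36 to 1.60) at 9 months and 0.774 (0.691 to 0.865) at 15 months, Haao had 0.970 (0.885 to 1.06) and 0.714 (0.634 to 0.802), and Kmo had 1.36 (1.15 to 1.61) and 0.780 (0.620 to 0.978). At 21 months 1 partner was higher and 2 were lower past 1.5-fold, where 15.5% and 22.7% of all genes were. The higher one was Acmsd with 3.55 (2.6 to 4.9), from 56 counts at 3 months and 157 at 21 months. The lower ones were Aadat with 0.61 (0.374 to 0.974) and Ccbl1 with 0.645 (0.517 to 0.801). Aldh8a1 was at 1.16 (1.01 to 1.34). The genes that make the molybdenum cofactor of Aox1 or use it were low, Suox with 55.2 to 72.0 cpm, Mocs1 with 49.0 to 78.5 cpm and Gphn with 26.6 to 66.6 cpm. At 21 months 3 of 5 were higher past 1.5-fold, where 15.5% of all genes were, and Aox1 was at 1.05. The higher ones were Gphn with 2 (1.25 to 3.24), Mocs2 with 1.65 (0.926 to 2.97) and Mocos with 1.5 (0.913 to 2.48). Mocos lay at the limit, and the intervals of Mocs2 and Mocos include 1. The more abundant Suox and Mocs1 were at 1 (0.684 to 1.46) and 0.776 (0.525 to 1.13). Beside Adh5, Gclm and Gclc, the subunits of the enzyme that starts glutathione synthesis, had 91.3 to 126 and 54.4 to 126 cpm. Gclc was at 0.429 (0.280 to 0.642) at 15 months and 0.421 (0.287 to 0.607) at 21 months, where Adh5 was at 0.735 and 0.931. Its fitted log2 change over 18 months was -1.35 ± 0.46 (SE, edgeR adjusted p = 0.44). Esd, the hydrolase for the product of Adh5, had 42.9 to 64.7 cpm.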

How the data were processed

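Liver RNA was measured in 1 pooled library per age (3, 9, 15 and 21 months). The values deposited by the authors are raw counts of reads per gene symbol, without normalisation. According to the methods, 35-base SOLiD 5500xl reads were mapped to mm9 with the CLC Genomic workbench, and the processing notes of the submitters also name HTSeq. Records without a unique alignment, without a gene or with several genes are summed in rows of their own and were left out, and 6.67 to 8.42% of the records lay on genes. Which strand was counted is not given in the sources used here. Columns of samples that were not used: 0.

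The 10 members and all gene lists were chosen with earlier results of these data known. Besides the members, the text names of each list the genes called in the age trend and up to 3 with the highest mean cpm. It also names genes that share a 35-base window with a member. Markers, Adh6a and the overlapping genes were added where a count or a sum needed them. Dpyd, Mut, Hibadh, Abat, Mcee, Mthfd1, Gart, Ido2, Afmid, Ccbl1, Ccbl2, Acmsd, Aadat, Mocs2, Mocos, Aldh5a1 and Aldh16a1 were named after their values were seen. Counts were divided by the library total (cpm) or the geometric mean of the 8704 genes above 0 in every library (clr). The age trend was fitted with edgeR 4.0.16 (R 4.3.3, TMM, filterByExpr, adjusted p threshold 0.05) after tests on simulated data, and with DESeq2 1.42.0 as an alternative. It treats the 4 libraries as points on a line, with no replicates at any age. Other scalings, filters, fold limits and leaving out each library were tried. Windows of 35 bases were searched in NCBIM37 with at most 1 mismatch, and gene models came from GENCODE M1. Python 3.11.15 and scipy 1.17.1 were used for the other steps.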

Additional observations from a re-analysis of the deposited data

How the results depend on the processing

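No paired analysis was possible because each age has 1 library. No member passed the age trend test under any scaling, filter or left-out library, or with DESeq2. The number of genes passing among all genes was 6 with edgeR, 2 with library totals, 0 with the DESeq2 Wald test (123 genes at an unadjusted p under 0.05) and 7 to 23 when each library was left out, with 16 without the 15 month and 23 without the 21 month library. Fitted log2 changes of members turned their sign when a library was left out, with ranges of -0.395 to 0.0352 for Adh1, -0.53 to 0.147 for Adh5, -0.431 to 1.36 for Aldh1a1, -0.41 to 0.185 for Aldh2, -0.51 to 0.143 for Aldh3a2, -0.414 to 1.07 for Aldh6a1 and -0.137 to 0.241 for Aox1. The sign turned without the 3 month library for Adh1, Adh5, Aldh1a1, Aldh2 and Aldh6a1, without the 15 month library for Aldh2 (0.00289) and without the 21 month library for Aldh3a2 and Aox1. None of these changes had passed the test, and the cause was not tested.

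The number of members past the fold limit moved from 2 to 1 at 9 over 3 months with deeper members or a limit of 2, from 2 to 1 with deeper members and to 0 with a limit of 2 at 15 over 3 months, and from 0 to 2 at 21 over 3 months with Atp5h, Gsk3b and Sirt2 as the scale. For the highest over the lowest age it moved from 3 to 1 with a limit of 2 and was 2 to 3 when each library was left out, and 4 with library totals or with Atp5h, Gsk3b and Sirt2 as the scale. With library totals 3 members passed at 15 over 3 months, Adh4 being added with 1.56. The summed 21 over 3 month ratio of the members was 0.915, and 0.958 without Aldh1a1. The median variance of clr was 0.00599 to 0.0253 when each library was left out. Low counts limit Adh4, Adh5, Aldh3a2, Aldh6a1 and Aox1, whose ratios have wide intervals, and with 1 pool per age differences between pools and differences with age cannot be told apart.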
